A study of Mus musculus with 2 samples.

Results

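The genes described here encode the AP-1 subunits Fos, Fosb, Fosl1, Fosl2, Jun, Junb and Jund, the zinc finger factors Egr1 and Egr2, and Ier2. Their probes were taken by the gene name printed in the scanner files, which gave 11 probes for 10 genes, out of 39429 probes for 30165 named genes. All 10 genes had a probe well above background on both arrays, as had 16996 of the 30165. The study cultured mononuclear cells of mouse bone marrow, a mixture of blood-forming, immune and other marrow cells, and measured their RNA on 1-colour whole-genome arrays. There was 1 array of a culture given ninjin'yoeito (NYT), a Japanese herbal formula, and 1 array of an untreated culture, the negative control. In both groups the cells came from the femurs of mice of strain C57/Bl6J aged 2 to 4 months, were flushed out in medium with 2% fetal bovine serum, and were collected at day 11. Neither the NYT dose nor whether the cultures shared animals is given in the sources used here. No test could be made from 1 array per group, and the spread between cultures is unknown, so each difference below compares the 2 arrays and not the conditions.

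AP-1 is a dimer of basic leucine zipper proteins. JUN proteins can pair with each other or with FOS proteins, whereas FOS proteins need a partner. Fos, Fosb, Jun, Junb, Egr1, Egr2 and Ier2 are classic immediate early genes: signals through RAS and the MAP kinases act on factors already bound at their promoters, such as SRF with its ELK partners and CREB, and transcription starts within minutes without new protein. In marrow cells AP-1 and EGR factors are known for roles in the differentiation of monocytes, macrophages and osteoclasts and in the activation of lymphocytes and mast cells.

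The DNA just upstream of some of these genes is shown as background, and its part in the differences between the arrays was not tested. RefSeq promoter windows (GRCm38.p6) matched 7 of the 10 genes by symbol, and the 250 bases before each start site were searched on both strands for 8 motifs. No window matched Egr1, Ier2 or Fosl1, so the genes with the largest differences, Egr1 and Ier2, are not covered. In the runs that follow, written in the direction of the gene, capitals mark the matches.
Fos, chr12:85473640-85473889, plus strand: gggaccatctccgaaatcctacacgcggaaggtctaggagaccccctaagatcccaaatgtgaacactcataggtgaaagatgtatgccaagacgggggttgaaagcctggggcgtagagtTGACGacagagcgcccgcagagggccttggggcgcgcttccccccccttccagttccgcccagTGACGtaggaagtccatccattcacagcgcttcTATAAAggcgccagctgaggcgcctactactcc
Fosb, chr7:19310046-19310295, minus strand: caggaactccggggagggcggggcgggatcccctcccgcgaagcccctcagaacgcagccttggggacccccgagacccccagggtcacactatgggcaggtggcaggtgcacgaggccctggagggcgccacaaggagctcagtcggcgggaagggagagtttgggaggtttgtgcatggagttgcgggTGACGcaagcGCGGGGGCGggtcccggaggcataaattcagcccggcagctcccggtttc
Jun, chr4:95052223-95052472, minus strand: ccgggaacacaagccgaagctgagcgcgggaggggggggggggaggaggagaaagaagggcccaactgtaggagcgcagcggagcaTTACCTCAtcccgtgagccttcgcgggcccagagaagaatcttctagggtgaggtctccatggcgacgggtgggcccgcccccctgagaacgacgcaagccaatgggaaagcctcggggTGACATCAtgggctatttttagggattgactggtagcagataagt
Egr2, first box, chr10:67537484-67537513, plus strand: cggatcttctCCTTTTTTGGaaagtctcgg
Egr2, second box, chr10:67537787-67537816, plus strand: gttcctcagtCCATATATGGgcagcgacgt

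The motifs were the CArG box bound by SRF, the CREB site TGACGTCA, its shorter form TGACG, which overlaps it, the AP-1 site TGAGTCA, the AP-1-like octamers TGACATCA and TTACCTCA, the EGR site GCGNGGGCG, and TATAAA. Fos held TGACG with its first base 129 and 66 bases before the start and TATAAA 33 bases before it. Fosb held TGACG at 60 bases and GCGNGGGCG at 50 bases, Jun held TTACCTCA at 164 and TGACATCA at 45, Junb held TGACG at 106, and Fosl2 held GCGNGGGCG at 79. A CArG box lay in 4 of the 5 windows listed for Egr2, which hold 2 different boxes, and TGACG lay in 3 of them. Jund matched none of the 8. Bases farther upstream than these windows were not searched. A gene with no match to a motif here, such as Fos, Fosb or Junb for the CArG box, may therefore still have one outside its window. Among all 32851 windows of the same length, 1.47% held a CArG box, 1.55% TGACGTCA, 17.8% TGACG, 4.46% TGAGTCA, 2.93% TGACATCA, 0.728% TTACCTCA, 4.70% GCGNGGGCG and 12.4% TATAAA. The octamers TGACATCA and TTACCTCA are forms known from the Jun promoter, so their match in Jun was set by the choice of motifs. These matches are descriptions of letters, not of bound sites.

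Levels below are spot intensities after scaling, given as a percent of the array's own 75th percentile. That percentile was 728 on the NYT array and 1475 on the control array, and scaling moved every difference by 1.02 on the log2 scale. Differences are log2, NYT minus control. The value after ± is the error that the scanner software assigns, which is dominated by an assumed 10% of the signal. The scatter of spots was smaller, with a median SD of 0.053 for a difference over 247 probes printed 10 times. Neither covers cultures or hybridisations. The arrays had 57.7% (NYT) and 62.2% (control) of probes well above background.

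All 4 FOS genes were lower in the NYT culture, by 2.07-fold to 2.59-fold, while Jun and Jund were 1.38-fold and 1.47-fold higher after scaling and lower without it or with spike-in scaling. Egr1 and Ier2 stood farthest from 0 among the 10 genes, at 7.37-fold and 4.23-fold lower. In all, 6 of the 10 genes were at least 2-fold lower, against 11.0% of the 16996 measured genes, and 0 were at least 2-fold higher, against 11.2%. The 10 genes had a median difference of -1.05, beside 0.29 for all measured genes. A difference below 0 was seen for 8 of the 10, against 35.6% of measured genes.

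**Figure D1:**
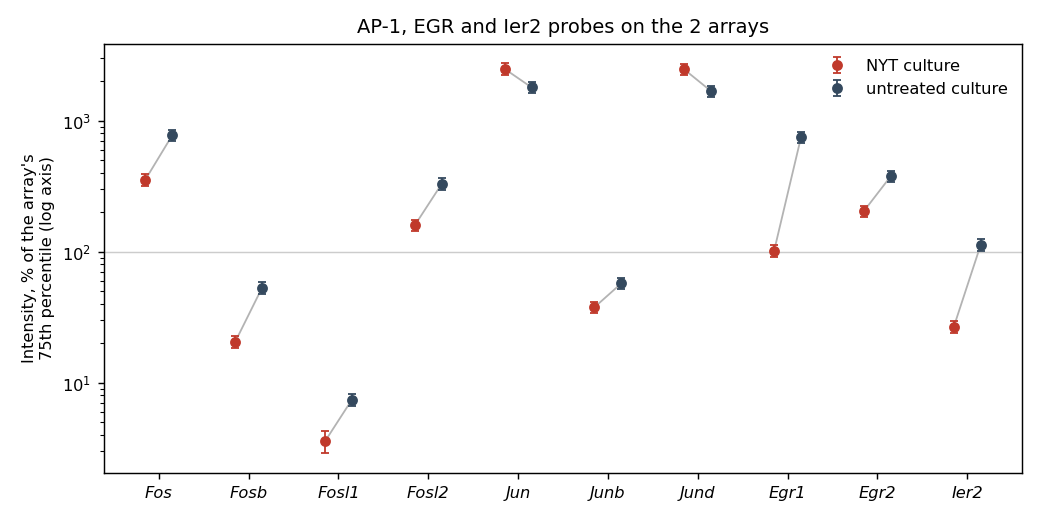
Scaled intensity of each gene's brightest probe, as a percent of the array's 75th percentile on a log axis, with the NYT culture (red) left of the untreated culture (dark) and the scanner software's error as bars. The grey line marks 100%. For 8 genes the NYT point lies below the control point, whereas for Jun and Jund it lies above.

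Fos, the founding partner of Jun in AP-1, was measured with most precision, since its probe (chr12:86817900-86817959, plus strand, mm9) was printed 10 times. Before scaling, its spots on the NYT array ran from 2312 through a median of 2591 to 2795 intensity units, against 11144, 11365 and 11804 on the control array. The 2 sets of spots did not overlap, but before scaling the 75th percentile of the NYT array was itself 2.03-fold lower. That shift is far wider than the scatter of spots, so the gap cannot be read as particular to Fos. How many other probes printed 10 times parted in this way was not counted. Scaled, Fos stood at 354% of the 75th percentile on the NYT array and 773% on the control array, a difference of -1.13 ± 0.20. Taken spot by spot, the difference lay between -1.25 and -1.06 with an SD of 0.056. Fos thus stayed a bright probe on both arrays, and 9.87% of measured genes had a lower difference.

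**Figure D2:**
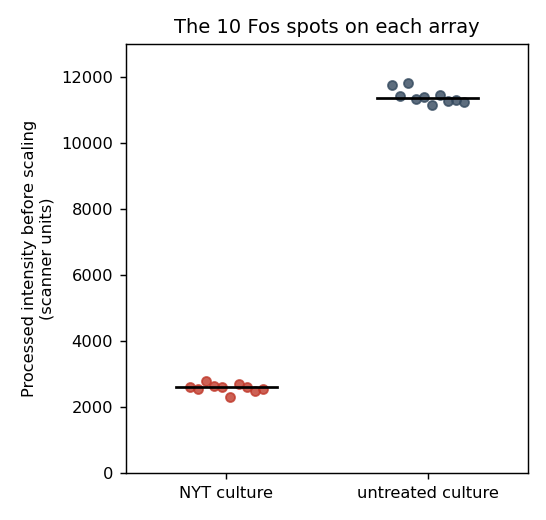
Processed intensity of the 10 Fos spots on each array before scaling, NYT left and control right, with the median as a line. The NYT spots lie between 2312 and 2795 and the control spots between 11144 and 11804, where spots are repeats within an array and not cultures.

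Fosb, a close relative of Fos that is also induced by neuronal and growth factor signals, stood at 20.5% on the NYT array and 53.1% on the control array, a difference of -1.38 ± 0.21. Its probe lies at chr7:19888168-19888227, minus strand (mm9). Fosl1, also called Fra-1, is a FOS protein without the strong activation domain of Fos. It was the dimmest of the 10 genes on both arrays, at 3.57% of the 75th percentile (NYT) and 7.43% (control). Its difference of -1.06 ± 0.32 was -0.03 when the background was instead corrected with the normexp model, -0.90 with quantile normalization and -0.91 in the authors' deposited table, each short of 2-fold. The mean pixel signal of that spot was 116 over a local background of 61.5 on the NYT array, and 212 over 64.0 on the control array.

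Fosl2, also called Fra-2, a regulator of bone cells, was represented by a pair of probes that did not give the same value. The brighter probe (chr5:32460076-32460135, plus strand, mm9) stood at 159% on the NYT array and 329% on the control array, a difference of -1.05 ± 0.20. The other (chr5:32455088-32455147, plus strand, mm9) was not well above background on the NYT array and stood at 2.30% on the control array, so it gave no fold. Fos, Fosl1 and Fosl2 thus lay only just past the 2-fold mark, where 10.6% of measured genes had a difference lower than that of Fosl2.

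The JUN genes formed the upper end of the group. Jun, the main partner of Fos, stood at 2478% on the NYT array and 1790% on the control array, a difference of 0.47 ± 0.20 that became -0.55 without scaling. Jund, which in many cells is present without stimulation, stood at 2454% (NYT) and 1672% (control), a difference of 0.55 ± 0.20 that became -0.46 without scaling. After loess both were near 0, at 0.01 and 0.10. Junb, which often opposes Jun and restrains myeloid growth in mice, stood at 37.6% (NYT) and 57.4% (control), a difference of -0.61 ± 0.21 and short of 2-fold. The probes lie at chr4:94716928-94716987, minus strand, for Jun, chr8:73224436-73224495, plus strand, for Jund and chr8:87501881-87501940, minus strand, for Junb, all mm9.

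Egr1, a zinc finger activator linked in mice to macrophage differentiation and to the quiescence of blood stem cells, stood at 101% of the 75th percentile on the NYT array and 747% on the control array. Only 519 of the 16996 measured genes, or 3.05%, had a lower difference than its -2.88 ± 0.20. Egr2, a relative with known roles in myelination and in T cell tolerance, stood at 204% (NYT) and 377% (control), a difference of -0.89 ± 0.20. That is 1.85-fold lower and short of 2-fold, and its probe lies at chr10:67004798-67004857, plus strand (mm9). Egr2 was past 2-fold in 3 of the 10 alternatives: after loess (-1.16), without scaling (-1.91) and with spike-in scaling (-2.07). Egr3 and Egr4 had no probe well above background on either array. Nab1 and Nab2, corepressors that bind EGR factors, stood at 0.17 and -0.05 and under 2-fold.

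Ier2, a small nuclear protein whose transcript appears early after serum stimulation, stood at 26.6% on the NYT array and 113% on the control array. Its difference was -2.08 ± 0.21, with 4.78% of measured genes lower, and its probe lies at chr8:87186214-87186273, minus strand (mm9). The value was -1.68 with normexp background correction.

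**Figure D3:**
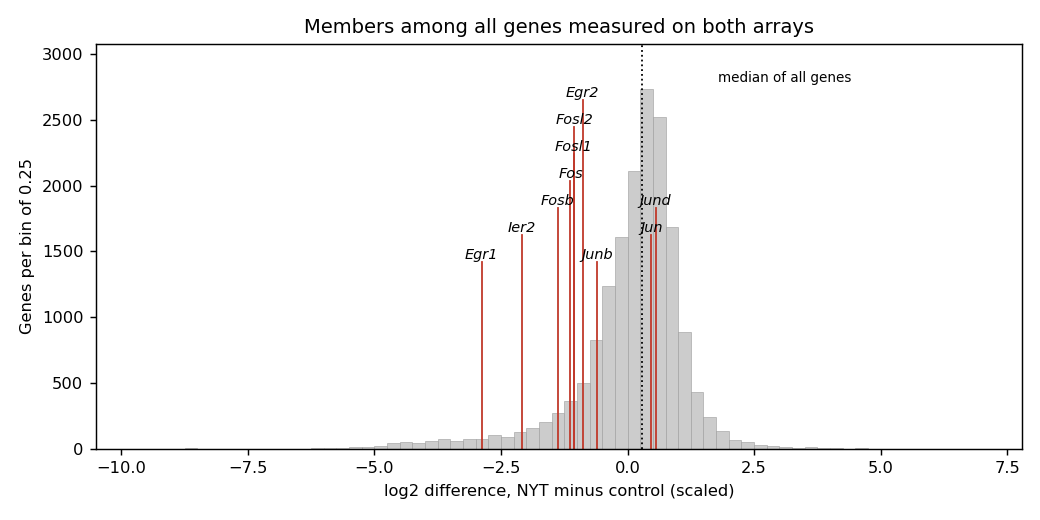
Histogram of the log2 difference, NYT minus control, of the 16996 genes measured on both arrays (grey, bins of 0.25), with the 10 genes as red lines and the median of all genes (0.29) dotted. The lines run from Egr1 at -2.88 to Jund at 0.55, and Jun and Jund are the only ones right of the dotted line.

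The scaling between the arrays sets where 0 lies, so the genes were also compared with each other, where a constant factor drops out. Relative to Jun on the same array, Egr1 was 10.2-fold lower in the NYT culture and Ier2 5.85-fold lower. Fosb, Fos, Fosl1 and Fosl2 were 3.59-fold, 3.02-fold, 2.88-fold and 2.87-fold lower relative to Jun, Egr2 2.56-fold and Junb 2.11-fold. Jund stood 0.085 above Jun on the log2 scale, where spot noise had an SD of 0.059. Over the 11 settings it stood between 0.079 and 0.090 above Jun. Each of the 8 other genes stayed below Jun in all 11 settings, from -1.60 to -1.40 for Fos and from -3.35 to -3.07 for Egr1, with Fosl1 nearest at -0.40 under normexp. Only quantile normalization, loess, normexp and the authors' deposited table could change these ratios. The remaining settings left them as they were, so they add no further check. No setting gave any of the 8 a larger fold relative to Jun than the one above. Junb came to -0.65, under 2-fold, in the authors' deposited table. It was also under 2-fold relative to Jun with quantile normalization, loess and normexp. A ratio of this kind shows unequal change and does not show that Jun itself was unaltered.

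**Figure D4:**
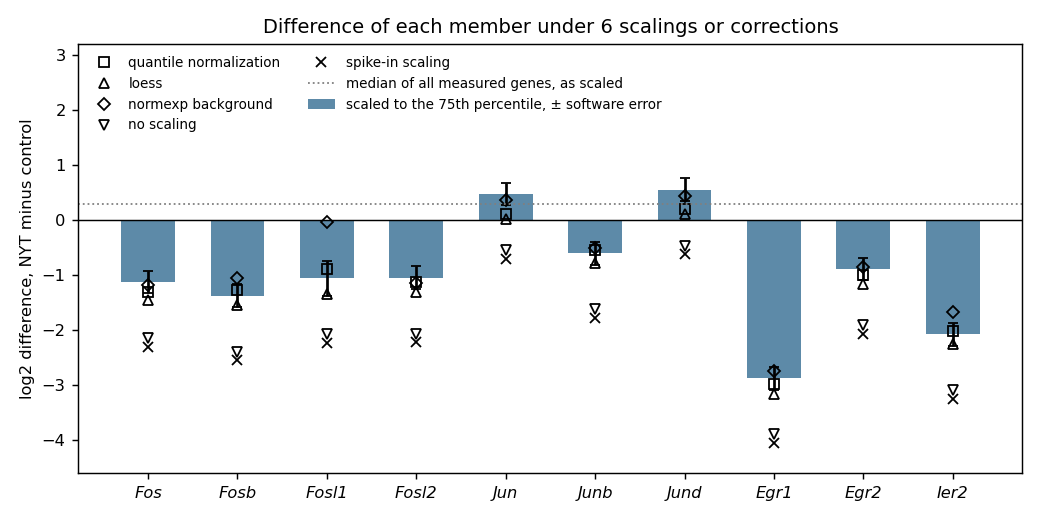
Log2 difference, NYT minus control, of each gene as scaled (bars, with the scanner software's error) and under 5 other scalings or corrections (symbols). The 8 genes other than Jun and Jund lie below 0 under each setting drawn. Jun and Jund lie above 0 except without scaling (-0.55 and -0.46) and with spike-in scaling (-0.71 and -0.63), and Fosl1 reaches -0.03 with normexp.

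Without scaling, 8 of the 10 genes were at least 2-fold lower, where 36.4% of all measured genes were. With scaling to spike-in RNA 8 were again, where 44.0% of all genes were. The 4 FOS genes then stood between -2.55 and -2.23 and Egr1 at -4.06, beside a median of -0.89 for all genes. The 8 genes other than Jun and Jund lay below the median of all measured genes in each of the 10 alternatives. A constant scaling moves these genes and that median alike, so median, spike-in or no scaling could not change this.

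Genes around these factors were read from 7 lists, which together held 140 genes, 128 of them measured on both arrays. Of the 128, 28 (21.9%) were at least 2-fold lower and 18 (14.1%) at least 2-fold higher, with a median of -0.05. Among all measured genes 11.0% were lower and 11.2% higher. These counts depended on the scaling. Without it, 70 of the 128 were lower, against 36.4% of all measured genes, and 3 (Plk2, Dusp4 and Ctsk) were higher, against 1.24%. Among other leucine zipper partners, 4 of 17 were lower and 3 higher (median 0.07), or 8 and 0 without scaling. Batf2 and Jdp2, which pair with JUN proteins, stood at -1.21 and -1.15. Atf3, a stress-induced partner of Jun, was 2.80-fold higher, at 2784% of the 75th percentile in the NYT culture and 993% in the control, and stayed above 0 without scaling (0.47) and with spike-in scaling (0.31). Atf4, the factor of the amino acid response, stood at 1.12 as scaled, at 0.10 without scaling and at -0.06 with spike-in scaling.

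Of 34 other immediate early genes measured, 12 were at least 2-fold lower and 6 higher (median -0.36), or 24 and 1 without scaling (median -1.38). The shares of all measured genes were 11.0% lower and 11.2% higher, or 36.4% and 1.24% without scaling. Ptgs2, the inducible cyclooxygenase, was 11.9-fold lower, and the matricellular genes Ccn2 and Ccn1 were 9.97-fold and 9.56-fold lower. Arc was well above background on the control array alone and at least 3.18-fold lower. In the other direction Plk2, a polo-like kinase, was 7.51-fold higher and stayed above 0 without scaling (1.89). The other 5 genes that were higher as scaled were under 2-fold without scaling.

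**Figure D5:**
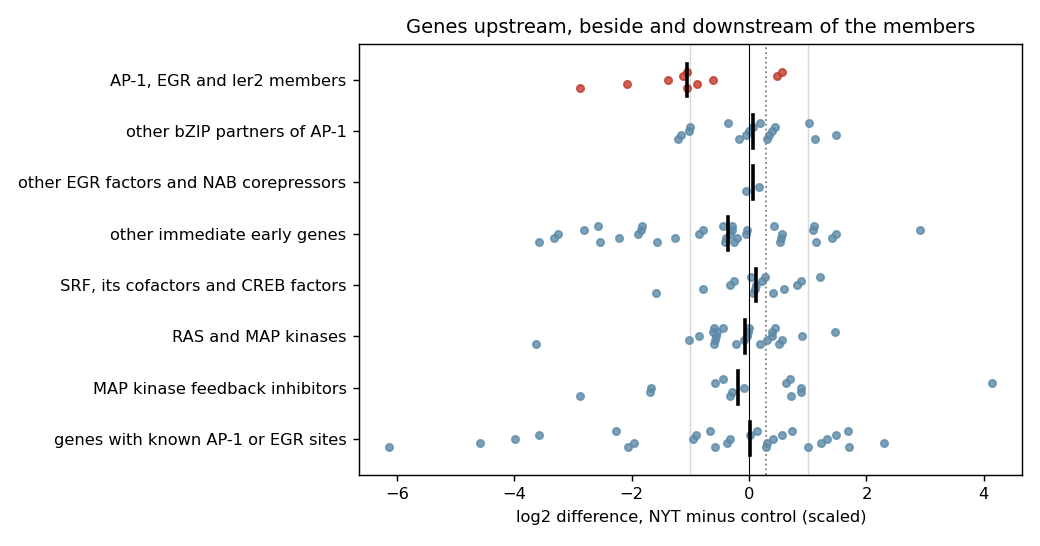
Log2 difference, NYT minus control, of each gene measured on both arrays in the 10 factors (red) and the 7 other lists (blue), with the list median as a black bar, 2-fold as pale lines and the median of all genes (0.29) dotted. The median of the 10 factors is -1.05, and those of the other lists lie between -0.36 and 0.11, all as scaled. Without scaling the median of the 10 factors is -2.07 and those of the other lists lie between -1.38 and -0.91.

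Among all measured genes, 77.8% were under 2-fold as scaled, and without scaling 36.4% were at least 2-fold lower and 1.24% higher. Of 15 genes for SRF, its cofactors and CREB factors, 1 was lower, 1 higher and 13 under 2-fold (median 0.11), and without scaling 4 were lower and 0 higher. Mef2a stood at -1.58 by its brightest probe but at 0.27 by another, Creb3 at 1.21 (0.20 without scaling) and Mrtfb at 0.88 (-0.14 without scaling). Atf1 stood at 0.81 by its brightest probe, at -0.32 by another, and at -0.21 without scaling. Of 24 genes for RAS and the MAP kinases, 2 were lower, 1 higher and 21 under 2-fold (median -0.07), and without scaling 15 were lower and 0 higher. Mapk13, the p38 delta kinase, was 12.4-fold lower and Rps6ka5, which acts on CREB and histones, 2.04-fold lower, while Hras stood at 0.91 as scaled and -0.11 without scaling. Mapk8, which encodes the JUN kinase JNK1, stood at 1.47 by its brightest probe, itself dim at 6.98% (NYT) and 2.52% (control), and its 3 probes ran from -0.15 to 1.91.

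Feedback inhibitors of the MAP kinases went both ways, with 3 of 14 lower and 1 higher (median -0.19), or 8 and 1 without scaling. For all measured genes the shares were 11.0% lower and 11.2% higher, or 36.4% and 1.24% without scaling. Dusp4, a nuclear phosphatase of the MAP kinases, was 17.7-fold higher, at 222% of the 75th percentile in the NYT culture and 12.5% in the control, and stood at 3.13 without scaling. Spry1, an inhibitor of receptor tyrosine kinase signals, was 7.35-fold lower, Dusp6, the ERK phosphatase, 3.22-fold and Dusp10, which acts on p38 and JNK, 3.16-fold. Among genes with known AP-1 or EGR sites, 7 of 27 were lower and 7 higher as scaled (median 0.01), but 14 were lower and 1 higher without scaling (median -1.01). Il1b was 69.8-fold lower and Mmp9 24.0-fold. Of those higher as scaled, named after their values were seen, Ctsk, the osteoclast protease cathepsin K, was 4.89-fold higher and stood at 1.27 without scaling. Plau, the urokinase, was 3.26-fold higher and stood at 0.69 without scaling. Il6, Fasl and Csf2 were well above background on the control array alone and at least 20.2-fold, 13.8-fold and 6.41-fold lower.

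The marker genes of several cell types differed between the arrays along with these factors. Bulk RNA cannot tell fewer cells of a type from less RNA per cell. Markers are counted as lower or higher at 2-fold as scaled, where 11.0% of all measured genes were lower and 11.2% higher. Markers of mast cells and basophils were lower for 5 of 5 measured on both arrays, with a summed scaled intensity of 109% of the 75th percentile (NYT) and 4948% (control), where sums here and below are over the genes measured on both arrays. Megakaryocyte markers were lower for 6 of 6 (sums of 3124% in NYT and 27641% in control), eosinophil markers for 4 of 4 (482% in NYT and 7134% in control) and neutrophil markers for 7 of 9 (31641% in NYT and 72415% in control). T and NK cell markers were lower for 4 of 5, with sums of 479.9% (NYT) and 1657% (control), and 4 more (Cd8a, Cd8b1, Gzmb and Klrd1) were well above background on the control array alone. Monocyte and macrophage markers were lower for 6 of 10 and higher for 1, Cd68, with sums of 45767% (NYT) and 54734% (control). Without scaling 36.4% of all measured genes were lower. The counts were then 9 of 9 for neutrophils, 5 of 5 for T and NK cells and 8 of 10 for monocytes and macrophages.

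Stem and progenitor markers were lower for 6 of 8 (sums of 3201% in the NYT culture and 4624% in the control), dendritic cell markers for 4 of 6 (9827% in NYT and 21811% in control), stromal markers for 5 of 6 (851% in NYT and 3125% in control) and erythroid markers for 2 of 4 (8381% in NYT and 9094% in control). Markers at least 2-fold higher, named after their values were seen, were Cd68 (1.18), Procr (3.18) among stem and progenitor markers, Lepr (1.35) among stromal ones and Slc4a1 (1.30) among erythroid ones. Without scaling Procr stood at 2.16, and Cd68, Lepr and Slc4a1 were under 2-fold at 0.16, 0.34 and 0.28. B cell markers were lower for 1 of 6, Ebf1 (-1.05), with sums of 2167% (NYT) and 2568% (control). Without scaling 4 of these 6 were lower, beside 36.4% of all measured genes. With spike-in scaling 5 were, beside 44.0%. Among the genes that differed most in each marker list were Cpa3 (-7.18) and Mcpt8 (-6.63) for mast cells and basophils, Il2rb (-5.42) and Cd3d (-4.93) for T and NK cells, Col1a1 (-5.33) and Col1a2 (-4.39) for stroma, and C1qa (-5.21) and Ccr2 (-4.33) for macrophages and monocytes. Others were Epx (-5.11) and Ear1 (-4.63) for eosinophils, Cxcr2 (-4.99) and Ly6g (-3.63) for neutrophils, and Selp (-4.68) and Itga2b (-4.65) for megakaryocytes. For stem and progenitor cells Slamf1 stood at -3.96. For erythroid cells they were Gata1 (-3.86) and Epor (-3.40), for dendritic cells H2-Aa (-3.82) and Cd74 (-2.93), and for B cells Ebf1 and Cd79b (-0.50). The part of cell type makeup in the differences of the AP-1 and EGR genes was not tested.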

How the data were processed

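The authors deposited Agilent scanner output with an intensity for each spot. Version 10.7.1.1 of Feature Extraction is named in the file headers, and 9.5.1.1 in the submitters' processing notes. Spatial and multiplicative detrending and surrogate values for spots near background had been applied to these intensities, per the file headers, and no scaling between arrays. Each deposited spot also has flags for outliers, saturation and detection. Which of 2 RNA kits was used is not settled, since labels and design text differ. The table of normalized intensity deposited by the authors served as an alternative, with its normalization not stated in those sources.

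Of 43020 spots per array, 165 (NYT) and 258 (control) with outlier flags were left out, and 0 were saturated. Spots of a probe were averaged as log2 intensity, minus the 75th percentile over the array. A probe was detected when over 50% of its spots were well above background, and the brightest probe detected on both arrays stood for the gene. Probes were named through RefSeq (GRCm38.p6) accessions, symbols or synonyms, and 8215 of 39429 kept the file's name. For a gene detected on 1 array, a bound was computed with the dim probe's own signal or, if higher, the lowest detected signal of its array.

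Genes were counted at 2-fold with no test. Precision is limited by there being 1 array of each culture. The counting step was tested on simulated data. Alternatives were quantile, median, loess, spike-in or no scaling, normexp with an offset of 50 (limma 3.58.1, R 4.3.3), the authors' table, no filter on dim probes, another detection flag, the mean over probes, and thresholds of 3-fold and 1.5-fold. Python 3.11.15, numpy 2.4.6, pandas 2.3.3 and scipy 1.17.1 were used. The 10 genes and all lists were chosen with earlier results of these data known. Named besides the 10 were, from each list, up to 4 measured genes with the largest difference and up to 3 with the highest bound of at least 2-fold, and up to 2 from each marker list. A few genes that this rule names are not reported here. With 2 arrays every gene that differs has the same pattern, so none was named for a like pattern. Exon or UTR position of the probes was not analysed here.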

Additional observations from a re-analysis of the deposited data

Results flagged for a closer look

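The arrays carry spike-in RNAs, added in known amounts, that the comparison does not use. Of 10, 8 were well above background on both arrays, and the log2 difference before scaling, NYT minus control, was 2.25 for E1A_r60_a107, while the other 7 lay between -0.12 and 0.24. The spike-in scaling of the AP-1 and EGR genes used the median of the 8, which was 0.16 with or without that spike-in.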

How the results depend on the processing

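No paired analysis was possible because the design has a single array of NYT and of control, which also leaves none to omit. The count of AP-1 and EGR genes at least 2-fold lower ranged from 5 to 8 over the 10 scaling, background, filter and probe alternatives. The share of all measured genes ran from 8.1% with normexp, where the count was 5, to 44.0% with spike-in scaling, where it was 8. At 3-fold the count was 2 (Egr1 and Ier2), where 1167 of 16996 measured genes were lower. At 1.5-fold it was 8, where 2868 of 16996 were. Of the 6 genes lower as scaled, 5 stayed at least 2-fold lower under all 10, the exception being Fosl1, which was under 2-fold with quantile normalization, the authors' table and normexp. The filter, flag and probe alternatives left the values of the 10 genes unchanged, and no scaling and spike-in scaling lowered all of them. Those settings could not have brought a lower gene short of 2-fold. The median of the 10 genes, -1.05 as scaled, was -2.23 with spike-in scaling. Among all genes, the counts past 2-fold upward and downward were 1904 and 1868 as scaled, 211 and 6190 without scaling, 166 and 7485 with spike-in scaling, 950 and 2359 after loess, 4750 and 3414 when dim probes were kept, 507 and 1167 at 3-fold and 5163 and 2868 at 1.5-fold, with 3572 higher under the other detection flag. These are out of 16996 genes, except 30163 when dim probes were kept and 22445 under the other detection flag. The median difference of all genes was 0.29 as scaled, -0.73 without scaling, -0.89 with spike-in scaling and -0.02 after loess. The medians of the 7 other lists, -0.36 to 0.11 as scaled, ran from -1.38 to -0.91 without scaling and from -1.54 to -1.07 with spike-in scaling. More or fewer genes enter with another filter or threshold, and the cause was not tested for the rest.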
